A study of Oryza sativa Japonica Group with 18 samples.

Results

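Leaves of rice plants overexpressing OsERF096 were compared with leaves of wild-type plants after 12 h at 4 °C by RNA sequencing. OsERF096 belongs to the ethylene response factor family of plant transcription factors. The comparison uses 6 of the series' 18 libraries, namely 3 of overexpressing plants in the cold (OX cold) and 3 of wild type in the cold (WT cold). It covers 23175 of the 38610 genes in the deposited table, those that reached 1 FPKM (fragments scaled by transcript length and by the number mapped in the library) in at least 3 of the 18 libraries. Plants of Oryza sativa Japonica Group were grown to the 3-leaf stage under 14 h of light and 10 h of darkness, and leaves were frozen either straight from these conditions (OX control and WT control, 3 libraries each) or after the cold. The series also holds plants with an RNA interference construct against OsERF096 (RNAi control and RNAi cold, 3 libraries each). The spread behind each p-value is pooled over all 18 libraries, RNAi included, unless stated otherwise. The labels name neither the promoter of the transgene nor the number of independent transformants. Whether libraries of the same group came from different plants is not labelled, so each p-value is set by how far these libraries vary, possibly for technical reasons. The row of OsERF096 was not analysed here, so the label OX stands unchecked by its target.

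Rice is a plant of warm climates, and its seedlings are damaged by temperatures that temperate cereals tolerate. Chilling raises calcium in the cytosol, which calcium-dependent protein kinases read, and switches on the CBF/DREB1 transcription factors, whose targets include dehydrins and other protective proteins. The hormone abscisic acid acts beside this route. It binds receptors that inhibit clade A protein phosphatases (PP2C), which frees SnRK2 kinases (named SAPK in rice) to activate stress genes. Ethylene is made by ACC synthase and ACC oxidase and is sensed by receptors such as ERS1 that repress the pathway until the hormone binds.

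Between 19597 and 20927 genes reached 1 FPKM in each of the 6 cold libraries. On the log2(FPKM + 1) scale, correlations ranged from 0.972 to 0.988 between libraries of the same cold group and from 0.935 to 0.959 between OX cold and WT cold libraries. Among the control libraries, whose spread also enters the error of the model, WT control replicate 2 stood apart. Its mean correlation with its own group was 0.920, against 0.948 and 0.952 for the other WT control libraries, and its 4 secondary wall genes summed to 12.5 FPKM, against 211 and 279 FPKM. Absolute read depth is unknown. The steps between low FPKM values placed the OX cold libraries at 0.999, 0.997 and 1.16 times the depth of WT cold replicate 1, and the other WT cold libraries at 1.42 and 0.927 times it, on 33 to 50 values each. The green leaf markers RCA, CAB1R and CAB2R summed to between 8697 and 9770 FPKM in OX cold libraries and between 12020 and 14056 FPKM in WT cold libraries, and none of the 3 was called. The meristem markers OSH1 and OSH15 and the root marker LSI2 were listed at 0 in all of these libraries, and the 5 meristem and cell cycle markers summed to between 7.20 and 8.17 FPKM in OX cold and between 5.32 and 8.54 FPKM in WT cold. The root silicon transporter gene LSI1 averaged 4.00 FPKM in OX cold leaves and 0.728 FPKM in WT cold leaves, and was not called (adjusted p = 0.160).

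Of the 23175 genes, 2199 (9.49%) were higher and 784 (3.38%) lower in OX cold than in WT cold leaves, which together is 2983 genes or 12.9%, by limma with a Benjamini-Hochberg adjusted p under 0.05 (a call, here and below). The OX cold and WT cold libraries did not overlap in 38.0% of genes. Most differences were moderate, since 907 of the higher and 229 of the lower genes differed by at least 1 on the log2(FPKM + 1) scale, and 120 and 57 by at least 2. The median of all genes was higher in OX cold by 0.08 on that scale, and its difference was -0.04 after quantile normalization. Higher genes made up 73.7% of the calls on the deposited scale, 62.8% with median-ratio scaling and 54.2% with quantile normalization, so the balance of directions depends on the scaling. The total depended on single libraries. Leaving out an OX cold library gave 2123 (replicate 1), 1969 (replicate 2) or 1786 (replicate 3), and leaving out a WT cold library gave 1321 (replicate 1), 1594 (replicate 2) or 2785 (replicate 3). Without WT control replicate 2 in the model, 3853 genes were called, 2680 higher and 1173 lower, including all 2983.

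Genes with a checked name were grouped in 35 lists of hormone, stress, wall and photosynthesis genes. Of their 281 tested members, 44 were higher (15.7%), 5 lower (1.78%) and 232 not called, and the median log2 fold change of the members was 0.24. The lists were written with earlier results of these data known and hold well-studied stress genes, so their share of calls is given beside that of all genes without a test. Of the 49 calls, 15 held under all 15 alternative analyses run for members, and 34 ended under at least 1 of them, most often when a cold library was left out. These alternatives include neither a minimum fold change nor the loss of a control library. Of the calls that held, CPK1 (0.86), ERS1 (0.73), MPK12 (0.99) and SUT4 (0.87) lie under a log2 fold change of 1. Without WT control replicate 2 all 49 were called, with 15 more members, for 54 higher and 10 lower.

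**Figure D1:**
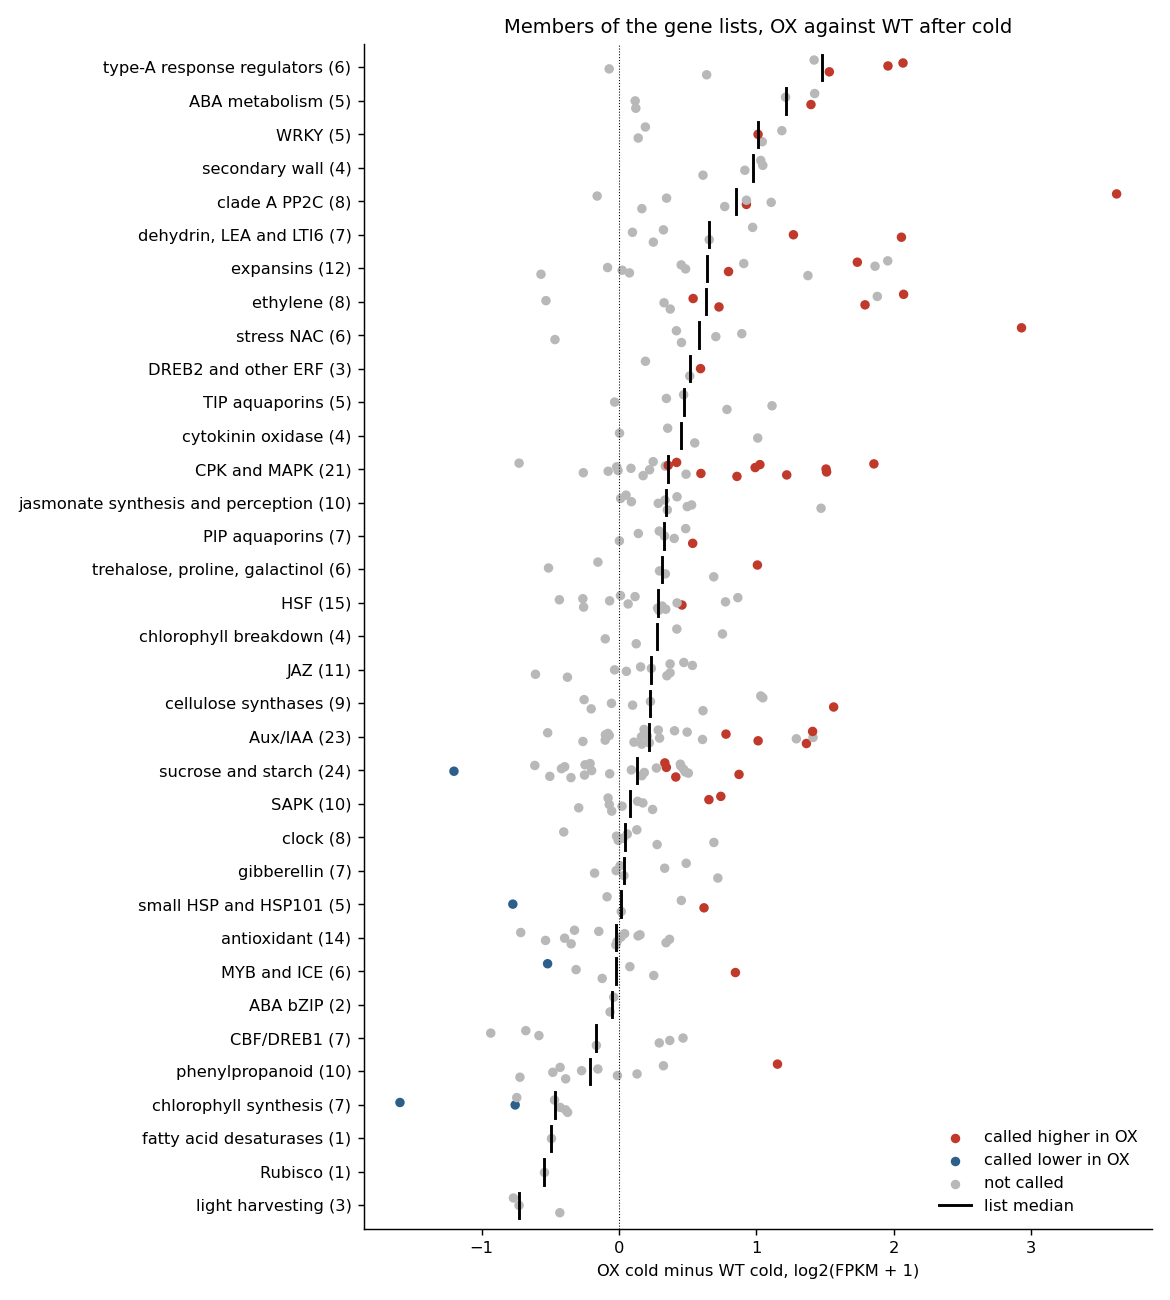
Difference OX cold minus WT cold on the log2(FPKM + 1) scale (x axis) for each tested member of each list (rows, with the number tested). Red points were called higher in OX, blue points lower and grey points neither, and black bars are list medians. Type-A response regulators have the highest median (1.48) and the light-harvesting genes the lowest (-0.73), and calls lie almost entirely on the higher side, with 44 red and 5 blue genes.

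Abscisic acid signalling held the member with the largest difference. PP2C68, which encodes a clade A phosphatase, had 17.6, 30.5 and 37.0 FPKM in the OX cold libraries, against 1.197, 1.61 and 1.08 FPKM in the WT cold libraries. Every OX cold library was far above every WT cold library, and the log2 fold change was 3.62 ± 0.41 (SE, adjusted p = 3.59e-05). In leaves without cold the order was the opposite, at 3.96 ± 1.76 FPKM in OX control and 13.3 ± 2.66 FPKM in WT control (SD, n = 3 each), and this was also called (log2 fold change -1.59, adjusted p = 0.0426), though not without WT control replicate 2 (adjusted p = 0.0999). PP2C09, of the same clade, had 33.8, 45.0 and 41.7 FPKM in OX cold and 23.8, 20.7 and 17.44 FPKM in WT cold, a log2 fold change of 0.93 ± 0.29 (adjusted p = 0.0473). The call of PP2C09 ended without any 1 of the 6 cold libraries (adjusted p up to 0.137). Of the 8 clade A genes tested, 2 were thus higher, none was lower, and the 6 others lay between -0.16 and 1.11, with a list median of 0.85. This is 25% called, beside 12.9% of all genes.

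NCED3 encodes a 9-cis-epoxycarotenoid dioxygenase, the enzyme of the committed step of abscisic acid synthesis. It had 7.19, 10.8 and 13.6 FPKM in OX cold and 2.83, 2.78 and 4.33 FPKM in WT cold, without overlap (log2 fold change 1.40 ± 0.36, adjusted p = 0.0192). Its call ended without OX cold replicate 2 or 3 or WT cold replicate 1 or 2 (adjusted p up to 0.0831). It was 1 of 5 genes of abscisic acid metabolism that was called. Of the 10 SAPK kinase genes, SAPK9 and SAPK2 were higher, by 0.74 ± 0.19 and 0.65 ± 0.19 on the log2 scale (adjusted p = 0.0168 and 0.0341), and the other 8 lay between -0.29 and 0.24. In both lists 20% of the genes were called, beside 12.9% of all genes. SAPK9 had 151, 118 and 115 FPKM in OX cold and 75.2, 68.3 and 83.6 FPKM in WT cold. Both SAPK calls ended without OX cold replicate 1 or WT cold replicate 1 or 2, and that of SAPK2 also without OX cold replicate 3 (adjusted p up to 0.126).

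The NAC transcription factors form a plant family that includes regulators of drought and cold tolerance in rice. NAC5 had 93.1, 92.5 and 122 FPKM in OX cold, against 10.9, 11.3 and 15.6 FPKM in WT cold, the second largest difference among the named genes (log2 fold change 2.93 ± 0.36, adjusted p = 7.74e-05). In control leaves NAC5 averaged 13.4 FPKM in OX and 26.4 FPKM in WT (log2 fold change -0.93, adjusted p = 0.164). The other 5 NAC genes tested, which lay between -0.47 and 0.89, were not called, so 1 of 6 was, beside 12.9% of all genes.

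LIP9 and LTI6B, which encode protective proteins, were well above wild type. LIP9, a dehydrin gene, had 236, 200 and 254 FPKM in OX cold and 47.0, 56.0 and 61.0 FPKM in WT cold (log2 fold change 2.06 ± 0.30, adjusted p = 0.000449). LTI6B, which encodes a small hydrophobic membrane protein induced by low temperature, had 907, 872 and 987 FPKM in OX cold and 327, 361 and 470 FPKM in WT cold (log2 fold change 1.27 ± 0.26, adjusted p = 0.00445). The lowest OX cold library of each was above the highest WT cold library. LTI6A, a relative of LTI6B, averaged 60.0 ± 6.52 FPKM in OX cold and 57.2 ± 15.0 FPKM in WT cold (SD, n = 3 each), and was not called, nor were the other 4 members of the list. TPP7, for a trehalose-phosphate phosphatase, was higher by 1.01 ± 0.25 on the log2 scale (adjusted p = 0.0160), with 60.7, 81.9 and 85.4 FPKM in OX cold and 30.0, 37.7 and 44.3 FPKM in WT cold. The TPP7 call ended without OX cold replicate 2 or 3 or WT cold replicate 1 (adjusted p up to 0.0887). Calls were thus 2 of 7 genes in the list of LIP9 and LTI6B and 1 of 6 in that of TPP7, beside 12.9% of all genes.

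**Figure D2:**
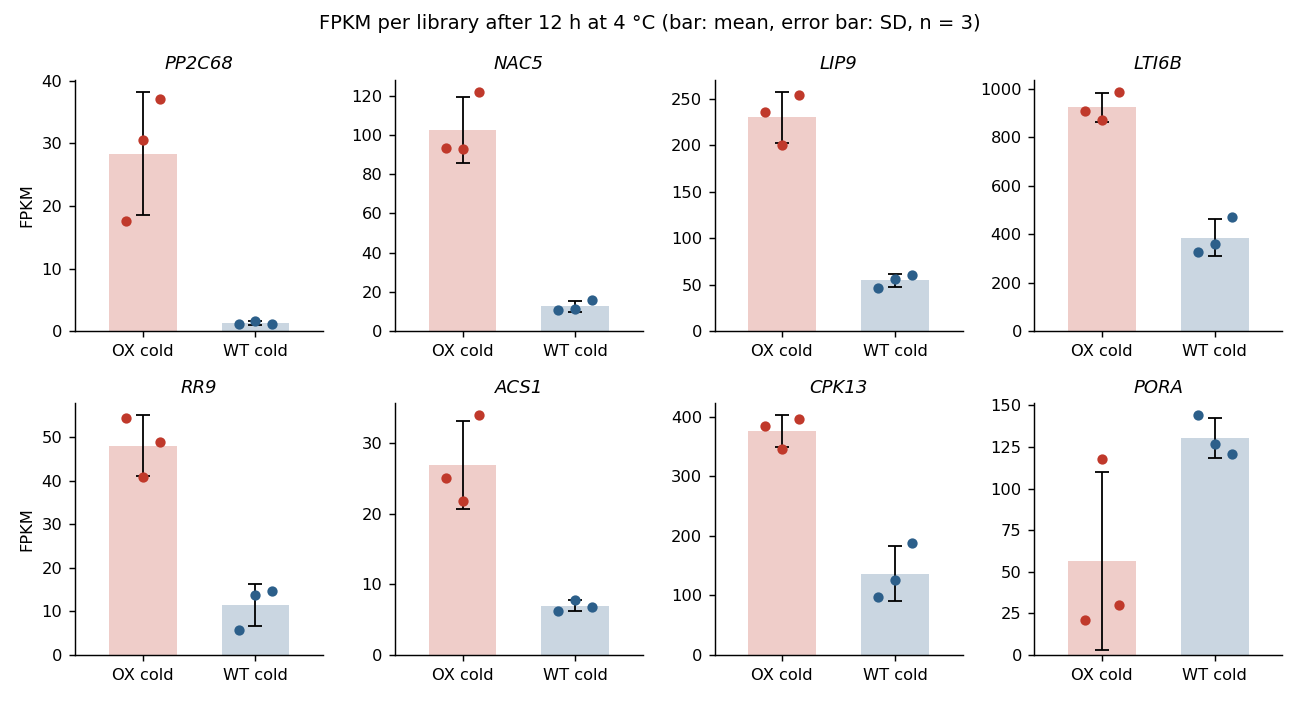
FPKM in each library after 12 h at 4 °C (y axes, linear and starting at 0) for 8 members, with OX cold left of WT cold, points for libraries, bars for means and error bars for SD (n = 3). In 7 of the 8 genes the OX cold libraries lie above the WT cold libraries, and in PORA they lie below, with OX cold replicate 2 (118 FPKM) close to the lowest WT cold library (121 FPKM).

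None of the 7 CBF/DREB1 genes tested was called, beside 12.9% of all genes, so that fewer than 1 call in 7 would match the share over all genes. Their median log2 fold change was -0.16, against 0.08 for all genes. The 3 neighbouring genes on chromosome 9 were lower in every OX cold library than in any WT cold library, so 3 of the 7 did not overlap, near the 38.0% of all genes. DREB1A had 265, 308 and 216 FPKM in OX cold and 404, 416 and 432 FPKM in WT cold, DREB1B 961, 1004 and 1053 FPKM in OX cold and 1456, 1394 and 1683 FPKM in WT cold, and DREB1H 24.6, 47.8 and 39.3 FPKM in OX cold and 58.6, 64.5 and 88.7 FPKM in WT cold. Their log2 fold changes were -0.68 ± 0.39, -0.58 ± 0.65 and -0.93 ± 0.33, with adjusted p = 0.272, 0.602 and 0.0725 in the model of all 18 libraries. DREB1C, on chromosome 6, had 53.4, 79.0 and 80.4 FPKM in OX cold and 52.4, 56.2 and 43.0 FPKM in WT cold, which overlapped (log2 fold change 0.47 ± 0.19, adjusted p = 0.113).

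The outcome for the chromosome 9 genes depended on which libraries set the error. In the model of all 18 libraries the error of each gene is pooled over 6 groups, and these include the control groups, where DREB1B, the highest of the 3, averaged 1.94 FPKM in OX and 4.09 FPKM in WT. With the 6 cold libraries alone, DREB1A, DREB1B and DREB1H were called lower (adjusted p = 0.0244, 0.0446 and 0.0440), while DREB1C, DREB1E, DREB1F and DREB1G were not. In that smaller fit 16.5% of all genes were called. DREB1A and DREB1B were singled out after their values were seen. How reads were divided between these close relatives was not given in the sources used here.

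**Figure D3:**
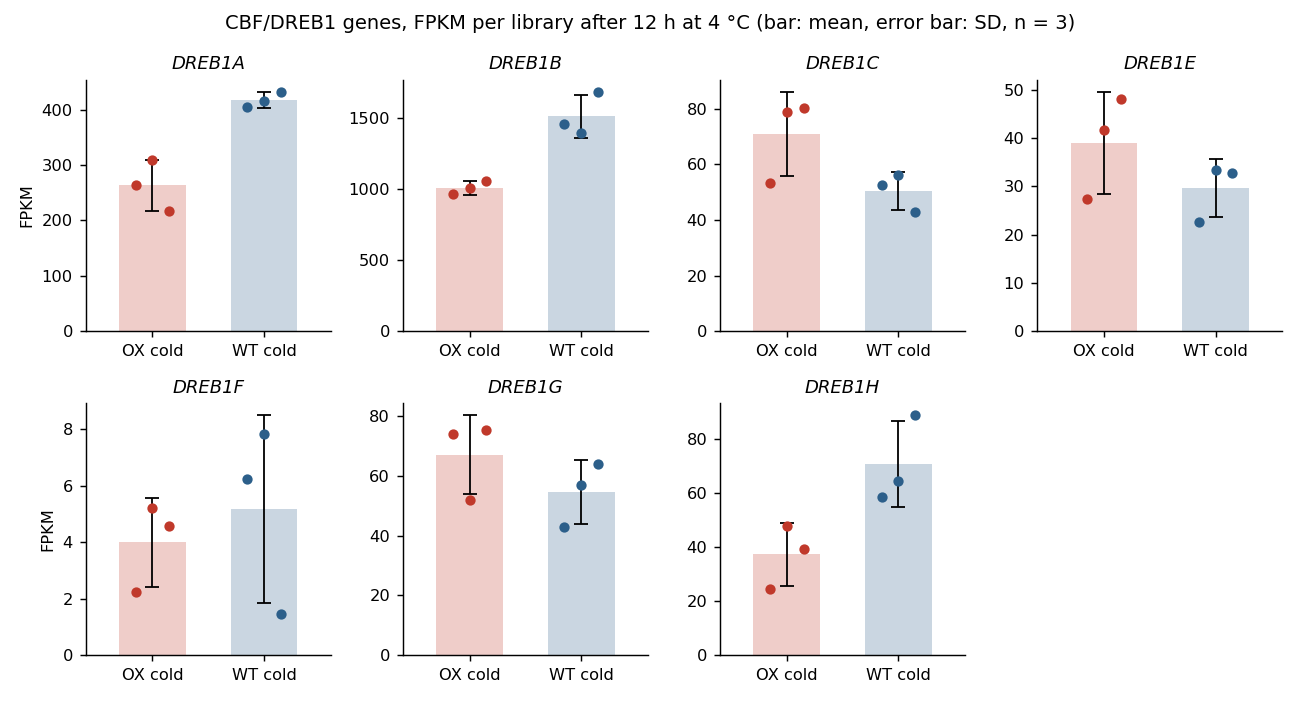
FPKM of the 7 CBF/DREB1 genes in each library after 12 h at 4 °C (y axes, linear and starting at 0), with OX cold left of WT cold, points for libraries, bars for means and error bars for SD (n = 3). DREB1A, DREB1B and DREB1H are lower in all 3 OX cold libraries, while the groups overlap in the other 4 genes.

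Kinases that decode calcium and relay stress signals were the list with the most calls, 47.6% of its genes beside 12.9% of all genes. The share was 50% in the shorter lists of ethylene genes and of type-A response regulators. Of 21 genes for calcium-dependent (CPK) and mitogen-activated (MAPK) protein kinases, 10 were higher in OX cold leaves and none was lower, and the list median was 0.36. CPK21 had 10.9, 17.38 and 24 FPKM in OX cold and 3.24, 4.48 and 3.99 FPKM in WT cold (log2 fold change 1.86 ± 0.21, adjusted p = 4.16e-05). CPK13 had 386, 347 and 397 FPKM in OX cold and 96.6, 125 and 188 FPKM in WT cold (1.51 ± 0.18, adjusted p = 7.30e-05). CPK4 had 134, 106 and 126 FPKM in OX cold and 55.2, 41.3 and 59.9 FPKM in WT cold (1.22 ± 0.16, adjusted p = 0.000129). In these 3 genes the lowest OX cold library was well above the highest WT cold library. MPK12 had 32.1, 25.7 and 28.0 FPKM in OX cold and 11.8, 12.9 and 17.3 FPKM in WT cold (0.99 ± 0.16, adjusted p = 0.00096), and CPK20 had 43.1, 34.2 and 43.4 FPKM in OX cold and 17.99, 16.1 and 24.11 FPKM in WT cold (1.03 ± 0.17, adjusted p = 0.00112).

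The remaining kinase calls were CPK1 (log2 fold change 0.86), MAPK5 (1.51), CPK19 (0.36), CPK24 (0.42) and CPK6 (0.60). MAPK5, which is induced by pathogens, wounding and abscisic acid, averaged 187 ± 56.2 FPKM in OX cold and 66.1 ± 23.5 FPKM in WT cold (SD, n = 3 each), and its call ended without OX cold replicate 3 or WT cold replicate 1 or 2 (adjusted p up to 0.105). The call of CPK19 ended without any 1 cold library other than WT cold replicate 1 (adjusted p up to 0.116), that of CPK24 without OX cold replicate 1 or 2 or WT cold replicate 1 or 2 (up to 0.116), and that of CPK6 without any 1 of the 6 (up to 0.164). Before cold, CPK24 was called the other way, at 18.6 FPKM in OX control and 25.7 FPKM in WT control (adjusted p = 0.0446), though not without WT control replicate 2 (0.0906). The 11 uncalled kinases lay between -0.73 and 0.49.

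Of 8 ethylene genes 4 were called, all higher, beside 12.9% called among all genes, and the list median was 0.63. The called ones were the synthesis genes ACS1 and ACO1 and the receptor genes ERS1 and ERS2. ACS1, for an ACC synthase, had 25.0, 21.8 and 33.9 FPKM in OX cold and 6.22, 7.81 and 6.84 FPKM in WT cold (log2 fold change 1.79 ± 0.21, adjusted p = 4.26e-05). It was nearly silent without cold, at 0.0114 FPKM in OX control and listed at 0 in WT control. ACO1, for an ACC oxidase, had 98.4, 27.1 and 59.2 FPKM in OX cold and 7.22, 13.1 and 18.5 FPKM in WT cold, with a wide spread in OX (2.07 ± 0.55, adjusted p = 0.0231). Its call ended without OX cold replicate 1 or 3 or WT cold replicate 1 or 2 (adjusted p up to 0.117).

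The receptor gene ERS1 had 35.1, 31.1 and 29.4 FPKM in OX cold and 16.1, 19.6 and 21.0 FPKM in WT cold (0.73 ± 0.13, adjusted p = 0.00203). ERS2, the second receptor of this type, had 6.48, 5.67 and 6.10 FPKM in OX cold and 3.51, 4.07 and 4.03 FPKM in WT cold (0.54 ± 0.16, adjusted p = 0.0354), and its call ended without any 1 of the 6 cold libraries (up to 0.140). ACS2, a second ACC synthase gene, lay on the other side at -0.53 and was not called. EIN2, of the same list, was higher by 1.88 and also not called (adjusted p = 0.166).

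Type-A response regulators are transcribed in response to cytokinin and restrain its signal. Of 6 tested, 3 were higher and none lower, beside 12.9% called among all genes. Their median of 1.48 was the highest of any list. RR9 had 54.5, 40.8 and 49.0 FPKM in OX cold and 5.80, 13.7 and 14.7 FPKM in WT cold (log2 fold change 2.07 ± 0.44, adjusted p = 0.00620). RR6 had 7.44, 9.59 and 5.69 FPKM in OX cold and 1.11, 1.39 and 1.01 FPKM in WT cold (1.96 ± 0.54, adjusted p = 0.0280), and RR2 had 121, 83.9 and 107 FPKM in OX cold and 28.7, 40.7 and 36.4 FPKM in WT cold (1.53 ± 0.45, adjusted p = 0.0362). The groups did not overlap in any of these 3 called genes, while they did not overlap in 38.0% of all genes, called or not. The RR6 and RR2 calls ended without any 1 of the 6 cold libraries (adjusted p up to 0.138).

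RR10, on chromosome 12, is a close copy of RR9 on chromosome 11, so reads may be shared between them. It was higher by 1.42 ± 0.46 and missed the threshold (adjusted p = 0.0544). CKX4, for a cytokinin oxidase, which degrades the hormone, had 5.65, 5.77 and 5.03 FPKM in OX cold and 1.45, 2.12 and 3.35 FPKM in WT cold and also missed it (log2 fold change 1.01 ± 0.33, adjusted p = 0.0575). In the fit of the 6 cold libraries alone both were called (adjusted p = 0.0110 for RR10 and 0.0220 for CKX4), as they were without WT control replicate 2 (0.0402 and 0.0358).

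The Aux/IAA proteins are repressors of auxin response that are themselves induced by auxin. Of 23 genes, 4 were higher, none was lower and the median was 0.22. Among all genes 12.9% were called, with 9.49% higher and 3.38% lower. IAA2 had 38.5, 54.7 and 58.8 FPKM in OX cold and 15.7, 20.1 and 20.9 FPKM in WT cold (log2 fold change 1.36 ± 0.29, adjusted p = 0.00713). IAA24 was higher by 1.41, IAA6 by 1.01 and IAA18 by 0.78. IAA24 lost its call without OX cold replicate 1, IAA6 without OX cold replicate 3 and IAA18 without OX cold replicate 2 or 3, and all 3 lost it without WT cold replicate 1 or 2 (adjusted p up to 0.137).

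Of the genes that build and loosen the cell wall, 2 of 12 expansins, 1 of 9 cellulose synthases and 1 of 10 phenylpropanoid genes were called, all higher, which is near the 12.9% called among all genes. EXPB3, for a beta-expansin, had 170, 59.7 and 88.6 FPKM in OX cold and 22.1, 23.9 and 42.8 FPKM in WT cold (log2 fold change 1.73 ± 0.46, adjusted p = 0.0224). EXPA6, for an alpha-expansin, was low throughout, at 1.81 ± 0.27 FPKM in OX cold and 0.619 ± 0.144 FPKM in WT cold (SD, n = 3 each; adjusted p = 0.0102), and the other 10 expansin genes were not called. CESA5, for a cellulose synthase subunit of the primary wall, had 38.1, 65.5 and 56.3 FPKM in OX cold and 14.8, 14.5 and 22.6 FPKM in WT cold (1.56 ± 0.40, adjusted p = 0.0193), 1 of 9 cellulose synthase genes called. The lignin gene 4CL5 was higher by 1.15 ± 0.29, 1 of 10 phenylpropanoid genes called.

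EXPA6 lost its call without WT cold replicate 1 (adjusted p = 0.0547), and EXPB3, CESA5 and 4CL5 without OX cold replicate 3 or WT cold replicate 1 or 2, EXPB3 also without OX cold replicate 1 and CESA5 without OX cold replicate 2 (adjusted p up to 0.101). The 4 secondary wall genes CESA4, CESA7, CESA9 and BC1 summed to between 131 and 234 FPKM in OX cold libraries and between 73.2 and 133 FPKM in WT cold libraries, which overlap, and none was called. Without WT control replicate 2 in the model, CESA9 and BC1 were called higher (adjusted p = 0.0314 and 0.0442). Their part in the differences of other genes was not tested.

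The tested genes of chlorophyll synthesis and light harvesting lay on the lower side, though only 3 light-harvesting genes were tested. All 7 chlorophyll synthesis genes had a log2 fold change between -1.59 and -0.37, with a median of -0.47, and 2 were called lower and none higher. Of all genes tested, 3.38% were called lower and 9.49% higher, together 12.9%. CHLD, for a subunit of magnesium chelatase, had 67.5, 79.1 and 77.5 FPKM in OX cold and 149, 136 and 100 FPKM in WT cold (log2 fold change -0.76 ± 0.24, adjusted p = 0.0488). PORA, for a protochlorophyllide oxidoreductase, which makes chlorophyllide in the light, had 21.0, 118 and 30.3 FPKM in OX cold and 144, 127 and 121 FPKM in WT cold (-1.59 ± 0.46, adjusted p = 0.0346). OX cold replicate 2 came close to wild type in PORA and the other OX cold libraries were far lower.

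CHLD lost its call without any 1 cold library other than WT cold replicate 3 (adjusted p up to 0.193), and PORA without any 1 other than OX cold replicate 2 (up to 0.149) and in the fit of the 6 cold libraries alone (0.0852). The antenna gene CAB1R had 510, 1028 and 591 FPKM in OX cold and 1043, 1400 and 1049 FPKM in WT cold, and RCABP89 had 2847, 4308 and 3054 FPKM in OX cold and 5075, 5941 and 5637 FPKM in WT cold. Neither was called (adjusted p = 0.163 and 0.215), and OX cold replicate 2 again stood nearest to wild type in both. CAB2R, the other light-harvesting gene tested, had a log2 fold change of -0.43 and was not called (adjusted p = 0.578). Further light-harvesting genes were left out for want of a checked name. RCA, for Rubisco activase, averaged 4480 ± 260 FPKM in OX cold and 6551 ± 213 FPKM in WT cold (SD, n = 3 each; adjusted p = 0.251). RCA, CAB1R and CAB2R are also the green leaf markers, whose sum was lower in every OX cold library. The part of a different share of green tissue or of transcript per cell in these values was not tested. In bulk leaves fewer cells of a type and less RNA per cell cannot be told apart.

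Of 24 genes of sucrose and starch, 4 were higher and 1 lower (20.8% called, beside 12.9% of all genes), and their median log2 fold change was 0.13. SUT4, for a sucrose transporter, had 14.3, 13.3 and 12.5 FPKM in OX cold and 6.23, 7.16 and 7.16 FPKM in WT cold (log2 fold change 0.87 ± 0.14, adjusted p = 0.00100). The transporter gene SUT2 and the sucrose-phosphate synthase genes SPS2 and SPS8 were higher by 0.33, 0.41 and 0.34. SUS7, for a sucrose synthase, was lower, at 0.2499, 0.0581 and 0.458 FPKM in OX cold and 1.75, 1.46 and 2.47 FPKM in WT cold (-1.20 ± 0.29, adjusted p = 0.0141). The other 19 genes were not called. SUS7 lost its call without OX cold replicate 2 (adjusted p = 0.0580), SPS2 without OX cold replicate 1 or 2 or WT cold replicate 1 or 2, SPS8 without any 1 other than WT cold replicate 2, and SUT2 without any 1 of the 6 (adjusted p up to 0.196).

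Other lists gave 1 or 2 calls each, on few genes and beside 12.9% called among all genes. EREBP1, of the same factor family as OsERF096, had 63.6, 67.1 and 67.5 FPKM in OX cold and 37.7, 42.0 and 51.7 FPKM in WT cold (log2 fold change 0.59 ± 0.13, adjusted p = 0.00734), and lost its call without WT cold replicate 1 (0.0502). MYB2 was higher by 0.85 ± 0.24 and MYBS2 lower (log2 fold change -0.52 ± 0.15), out of 6 MYB and ICE genes. WRKY51 was higher by 1.01 ± 0.32, 1 of 5 WRKY genes called, and HSFA2E by 0.46 ± 0.12, 1 of 15 heat shock factor genes. Of 5 heat shock protein genes HSP17.4 was higher by 0.62 ± 0.17 and HSP23.2 lower (log2 fold change -0.77 ± 0.18). The aquaporin gene PIP2-2 was higher by 0.54 ± 0.14, 1 of 7 plasma membrane aquaporin genes.

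All 7 of these calls other than EREBP1 ended without WT cold replicate 1. All but HSFA2E ended without OX cold replicate 3, and all but MYB2 and HSP23.2 without OX cold replicate 1. MYB2, WRKY51 and HSFA2E also lost theirs without OX cold replicate 2, MYB2, MYBS2 and WRKY51 without WT cold replicate 2, and MYBS2, HSFA2E, HSP17.4 and PIP2-2 without WT cold replicate 3 (adjusted p up to 0.177).

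No member was called of the 11 JAZ repressors (median 0.24), the 10 other jasmonate genes (0.34), the 8 clock genes (0.05), the 7 gibberellin genes (0.04), the 5 vacuolar aquaporins (0.47), the 4 chlorophyll breakdown genes (0.27) or the 14 antioxidant genes (-0.02). The share called over all genes was 12.9%. TIFY11B, a JAZ gene, had 618, 890 and 953 FPKM in OX cold and 1304, 1237 and 1153 FPKM in WT cold (adjusted p = 0.351). GI, a clock gene, averaged 241 ± 16.3 FPKM in OX cold and 199 ± 19.6 FPKM in WT cold (SD, n = 3 each; adjusted p = 0.174). The superoxide dismutase gene SODA averaged 56.4 ± 4.57 FPKM in OX cold and 74.5 ± 6.07 FPKM in WT cold (adjusted p = 0.102). In the fit of the 6 cold libraries alone SODA was called lower (adjusted p = 0.0489), as were SODCP (0.0243) and APX3 (0.0445) among the antioxidant genes, while the clock gene LUX (0.0306), the JAZ gene TIFY11D (0.0431) and the jasmonate genes AOS2 (0.0468) and OPR7 (0.0374) were called higher. That smaller fit called 16.5% of all genes. A missed threshold does not show that these list members were alike.

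The same OX against WT contrast in control leaves shares no library with the one after cold. In control leaves 4.00% of genes were called, and 243 genes (1.05%) were called the same way in both conditions, 117 higher and 126 lower in OX. These are 8.15% of the genes called after cold and 26.19% of those called in control. Without WT control replicate 2, which stood apart, 3.87% were called in control and 252 genes the same way in both conditions, of which 224 are among the 243. The calls in control, 928 in all, numbered 398 when OX control replicate 3 was left out, 550 when WT control replicate 1 was, and 575 when WT control replicate 3 was. Another 78 genes were called in opposite ways, 52 of them higher in OX after cold and lower in OX in control. They numbered 70 without WT control replicate 2, 34 without OX control replicate 3, and 33 or 49 when replicate 1 or 3 of WT control was left out. The difference between the contrasts, tested as an interaction, was called for 10.4% of genes, and for 8.44% without WT control replicate 2. Of the 2199 genes higher in OX cold, 1055 had an interaction called in that direction, and of the 784 lower genes 324 did. Of the 49 list members called after cold, 24 were also called for the interaction, each in the direction of its difference after cold. The interaction contains the contrast after cold and shares its libraries, so a common direction in these counts carries no independent support. Without WT control replicate 2 the interaction of PP2C09, PORA, RR9 and SAPK9 was no longer called (adjusted p up to 0.0820).

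**Figure D4:**
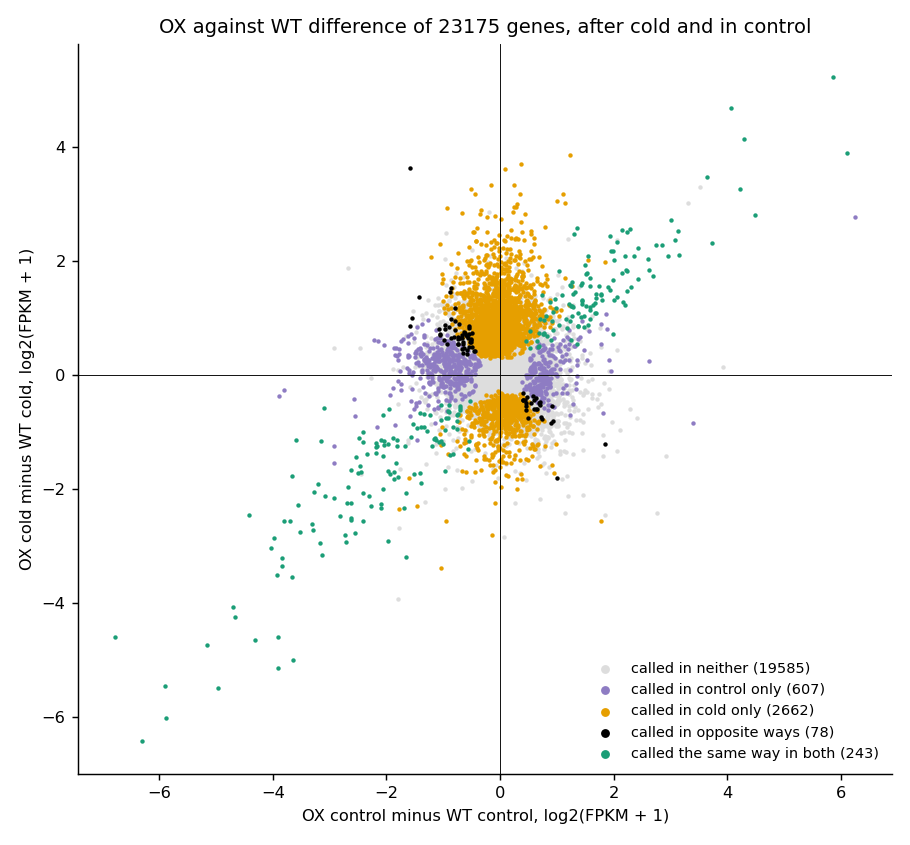
Difference of OX from WT in control leaves (x axis) and after cold (y axis) for 23175 genes, both on the log2(FPKM + 1) scale, colored by where each gene was called. The 243 genes called the same way in both conditions (green) form the arms at both ends, and the 2662 genes called in the cold only (orange) spread along the y axis around 0 on the x axis.

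Genes called in opposite ways included several without a name in the sources used here. Os03g0316200 had 19.1, 17.0 and 18.103 FPKM in OX cold and 5.07, 7.80 and 6.65 FPKM in WT cold, and averaged 5.72 FPKM in OX control and 16.87 FPKM in WT control (log2 fold changes 1.36 and -1.43). Os03g0132250 showed the reverse, with 17.0, 17.87 and 12.1 FPKM in OX cold, 75.1, 54.3 and 45.3 FPKM in WT cold, and averages of 10.9 FPKM in OX control and 4.94 FPKM in WT control (-1.82 and 1.00). Os08g0517001 had log2 fold changes of -1.21 after cold and 1.85 in control, and Os01g0785300 of 0.99 after cold and -1.55 in control.

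The largest differences after cold among unnamed locus IDs belonged to genes that also differed without it. Os11g0696600 was listed at 0, 0 and 0.0506 FPKM in OX cold, against 86.8, 77.1 and 94.7 FPKM in WT cold, and averaged 0.0751 FPKM in OX control and 83.5 FPKM in WT control. Os11g0685700 was listed at 0, 0 and 0.0806 FPKM in OX cold, against 62.7, 62.6 and 72.8 FPKM in WT cold, and averaged 0.0431 FPKM in OX control and 61.6 FPKM in WT control. Both were present in RNAi cold leaves, of plants with an RNA interference construct against OsERF096, at 95.1 ± 9.11 and 48.1 ± 7.001 FPKM (SD, n = 3 each). In the other direction, Os06g0204100 had 28.1, 39.5 and 42.8 FPKM and Os06g0246200 15.9, 16.6 and 17.0 FPKM in OX cold, and both were listed at 0 in all 3 WT cold libraries. They averaged 60.4 and 19.1 FPKM in OX control and were listed at 0 in WT control as well.

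In all, 44 genes were under 0.1 FPKM in the 6 OX libraries of both conditions and at 1 FPKM or more in all 6 WT libraries, and 27 genes showed the converse. Of these, 43 of the 44 and all 27 were called the same way in both conditions. The rule that picked them requires the lines to be apart in both conditions, so these calls were largely set by it. Of the 243 genes called the same way in both conditions, the median absolute log2 fold change was 1.42 after cold and 1.82 in control. It was 0.83 after cold for the remaining 2740 genes called there. The 243 had to pass the threshold in both conditions and include nearly all of the genes just counted, so these medians are not on equal terms.

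Genes lower in OX in both conditions were unevenly spread over the chromosomes. Chromosome 11 held 37 of the 104 such genes with a locus ID (35.6%), although it holds 5.31% of the tested locus IDs. Without WT control replicate 2 it held 40 of 112. Its share was 3.16% of its 1170 tested genes, and on the other 11 chromosomes the share ranged from 0.0836% to 0.908%. Of the 44 genes nearly silent in all 6 OX libraries, 31 have a locus ID, and 15 of these lay on chromosome 11. Nearly all of the 44 are among the genes lower in both conditions, so this count largely repeats the one above. Genes higher in OX in both conditions were also most frequent on chromosome 11, at 1.11% of its tested genes, which is 13 of the 88 such genes with a locus ID.

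**Figure D5:**
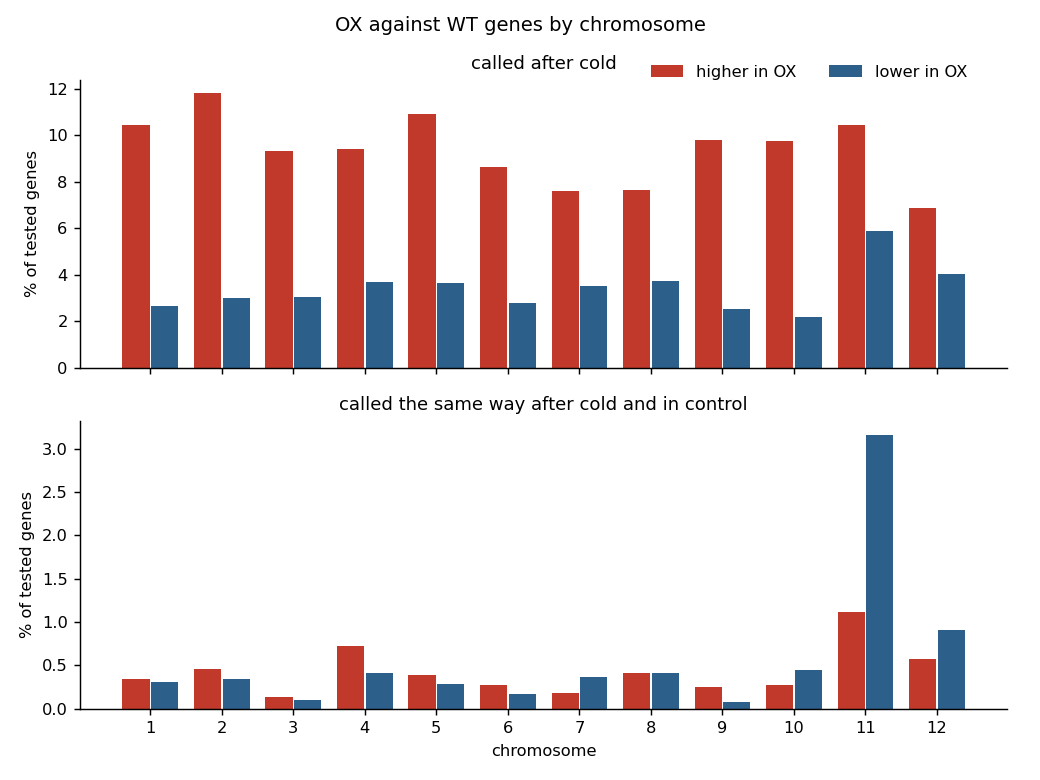
Percent of tested genes on each chromosome (x axis) called higher (red) or lower (blue) in OX than in WT, after cold (upper panel) and the same way after cold and in control (lower panel). In the lower panel the lower genes of chromosome 11 (3.16%) stand above all other bars, and in the upper panel they reach 5.90%.

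In the order of locus IDs, no window of 20 neighbouring tested genes held 12 called in the same direction after cold, and none of 40 held 24. The fullest windows lay on chromosome 11 for both directions, at 11 lower and 9 higher genes of 20. With a minimum of 10 of 20, chosen after seeing the data, 1 stretch was found, from Os11g0674400 to Os11g0695900. Of its 34 tested genes 14 were lower and 4 higher in OX after cold, and 21 were lower and 3 higher in control, or 19 and 3 without WT control replicate 2. The median log2 fold change there was -0.36 after cold and -0.97 in control.

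For the leading named genes, levels in the RNAi line after cold can be set beside these. PP2C68 averaged 45.3 ± 29.6 FPKM in RNAi cold, NAC5 124 ± 19.8, LIP9 202 ± 110, CPK13 524 ± 51.4 and ACS1 14.2 ± 5.13 FPKM (SD, n = 3 each). PORA averaged 16.3 ± 4.36 FPKM there. RR2 averaged 104 ± 18.6 FPKM in OX cold, 37.9 ± 2.24 FPKM in RNAi cold and 35.3 ± 6.09 FPKM in WT cold. The other called type-A response regulators were not near wild type in RNAi cold. RR9 averaged 62.0 ± 31.9 FPKM there, 48.1 FPKM in OX cold and 11.4 FPKM in WT cold. RR6 averaged 15.2 ± 14.3, 7.57 and 1.17 FPKM in the same order. The comparisons of OX cold and RNAi cold with wild type share the WT cold libraries, so a common direction carries no independent support.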

How the data were processed

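The authors deposited a table of FPKM, a value scaled by transcript length and library total, for 38610 genes in 18 libraries. Per the labels' protocols, Trizol RNA was made into Illumina TruSeq libraries. The submitters' processing notes name Bowtie 0.12.2. The sources used here give no genome build, annotation or counting tool. FPKM values carry no read totals, so precision rests on the 3 libraries per group. FPKM values are shares of a library, and a few abundant genes can shift all others.

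Groups came from the sample titles. A model of 6 group means was fitted to log2(FPKM + 1) over 18 libraries by limma 3.58.1 under R 4.3.3. Variances followed a trend with expression, and p-values were adjusted over the 23175 genes that reached 1 FPKM in 3 libraries. Fold changes on this scale understate those of low genes. On simulated data for the OX cold against WT cold comparison 67% of simulated log2 changes of 1 and 90% of those of 2 were called, beside 8 false calls in 23175 genes. For the interaction of line and cold these shares were 28% and 79%, beside 5 false calls. The simulation used normal noise with the fitted spreads. Its 200 changed genes all lay above 2 on the log2(FPKM + 1) scale in WT cold, so it does not cover low genes.

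The table pairs IDs with no names. Of 517 pairs of name and locus ID written from background knowledge, 348 were kept, since the name belonged to a single gene on the same chromosome, in the same order, of the reference table of assembly ASM3414082v1. The lists hold 341 genes, 281 of them tested. Members and lists were chosen with earlier results of these data known. Named were the called list members (with values by library for at most 5 per list), the 10 largest increases and decreases among named genes, the 2 largest each way among unnamed ones, up to 2 members of lists without a call, up to 5 genes called in opposite ways, and the ends of gene runs. Alternatives were another pseudocount, filters, scalings, no variance trend, library weights, a replicate block, the 6 cold libraries alone, a minimum fold change and leaving out each library. Promoter motifs were not searched.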

Additional observations from a re-analysis of the deposited data

Results flagged for a closer look

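The results below differed between the conditions by a test of the difference itself, the interaction of line and cold in limma, as a log2 difference of OX from WT after cold minus that in control. At an adjusted p under 0.05, 2402 genes were called, 1681 of them more positive and 721 more negative after cold. Leaving out OX cold replicate 2 gave 1385 calls, while leaving out WT cold replicate 1 gave 1078 and WT cold replicate 2 gave 1255. Leaving out WT control replicate 2, which stood apart from its group, gave 1957.

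Of the named genes called after cold, 24 were among them, and 20 of these remained without WT control replicate 2, all but PP2C09, PORA, RR9 and SAPK9. In abscisic acid and protective genes the difference was 5.21 for PP2C68, 3.86 for NAC5, 2.31 for LIP9, 2.02 for NCED3, 1.46 for PP2C09 and 0.90 for SAPK9. In kinases it was 2.05 for CPK13, 1.83 for CPK21, 1.48 for CPK4, 1.36 for MPK12, 1.00 for CPK1, 0.88 for CPK20, 0.87 for CPK24 and 0.62 for CPK19. In hormone genes it was 2.18 for RR9, 1.77 for ACS1 and 0.97 for ERS1. It was 1.06 for EREBP1, 0.75 for HSFA2E, 1.02 for SUT4, 0.65 for SPS8, 0.60 for SUT2 and 0.58 for SPS2. PORA had the only negative value among these 24 genes, at -2.30.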

How the results depend on the processing

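Counts of calls within 1.5 times those reported came from a pseudocount of 0.1, no filter, median-ratio scaling, no variance trend and the 6 cold libraries alone. Quantile normalization called 1334 lower genes in place of 784. Library weights called 6714 genes, 4559 higher and 2155 lower, with 396 the same way in both conditions and 3628 for the interaction. A minimum log2 fold change of 1 left 1136 genes, 907 higher and 229 lower. A filter at 5 FPKM left 128 genes called the same way in both conditions. The causes were not tested.

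With 1 cold library left out, the total ranged from 1321 to 2785, higher genes from 1010 to 2063 and lower genes from 311 to 722. With 1 control library left out, a choice made after seeing the data, the total ranged from 2815 to 3853, higher genes from 2066 to 2680 and lower genes from 739 to 1173, each highest without WT control replicate 2. With 1 library of either kind left out, genes called the same way in both conditions ranged from 203 to 252 and interaction calls from 1078 to 2428. Of the 49 called members none changed direction under any alternative, and 13 to 32 lost their call with 1 cold library left out. Quantile normalization ended 12 of the 49 calls, median-ratio scaling 11, no filter 6, a pseudocount of 0.1 and the replicate block 5 each, and no variance trend 4. In the 6 cold libraries alone 45 of the 49 kept it and 33 more members were called, 21 higher and 12 lower. That fit called 16.5% of all genes. One run of genes along a chromosome was found with 10 of 20 and 0 with the rules of 12 of 20 or 24 of 40.

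Same-numbered OX cold and WT cold libraries deviated together by correlations of -0.03, 0.10 and -0.005. These values gave no clear sign that the numbers pair the samples, and pairing was not tested. A replicate block gave 2632 calls, 2011 higher and 621 lower, with 240 the same way in both conditions and 1928 for the interaction. The absolute depth is unknown, so whether a gene listed at 0 was absent or below detection cannot be told. The planned description of promoter motifs was not run.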
